A study of Mus musculus with 47 samples.

Results

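Loss of Aire was examined in medullary thymic epithelial cells (mTECs) that already lacked EED, by comparing 3 AireEEDdKO libraries with 3 EEDcKO libraries. All 6 came from the neonatal mTEChi fraction, the mTECs with high surface MHC class II, and they were taken by genotype, age and fraction from the 47 libraries of the study. Both genotypes were C57BL/6 mice whose floxed Eed was deleted by Foxn1-Cre, a recombinase expressed from the promoter of a thymic epithelial factor. The deletion was thus directed at thymic epithelium in both groups, and Aire was the allele that differed. EEDcKO replicate 1 came from female mice of 6 days, replicate 2 from pooled males and females of 2 to 3 days, and replicate 3 from pooled males and females of 1 day. AireEEDdKO replicate 1 came from pooled males and females of 4 days, and replicates 2 and 3 from males of 6 and 4 days. Age and sex were therefore unequal between the groups, and within these 6 libraries their part in a difference cannot be told apart from that of Aire. Of the other neonatal libraries, 5 Ctrl mTEChi (1 to 6 days), 3 AireKO mTEChi (4 or 6 days, EED present), 3 AireEEDdKO mTEClo (4 or 6 days) and 4 EEDcKO mTEClo (1 to 6 days) were used for reference. Whether mTEChi and mTEClo libraries came from the same mice was not stated.

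Aire is a nuclear regulator through which mature mTECs transcribe genes otherwise limited to peripheral tissues, so that developing T cells meet those self-antigens in the thymus. EED belongs to the core of PRC2, the Polycomb complex that writes the repressive histone mark H3K27me3, and the catalytic subunits EZH1 and EZH2 depend on it. Besides Aire-expressing cells the medulla holds mimetic cells, mTECs that take on the programmes of tuft, ciliated, muscle, secretory and other peripheral cells. The comparison asks what Aire still does to transcription when Eed is deleted.

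The 6 libraries held 1578579 to 4346874 counts over 26032 to 31602 genes. Levels are given as CPM, the usual unit of counts scaled to a common library total, here after TMM normalisation, and 3 counts, the floor for a library in which a gene was at 0, corresponded to 0.656 to 1.86 CPM. Floors cover counting error only. The epithelial marker Epcam was at 266, 190 and 271 CPM in EEDcKO and at 182, 188 and 200 CPM in AireEEDdKO. The pan-leukocyte gene Ptprc was at 5.57, 4.81 and 31.1 CPM in EEDcKO and at 14.1, 16.2 and 17.6 CPM in AireEEDdKO, highest in EEDcKO replicate 3. AireEEDdKO replicate 1 was labelled as a pool of both sexes, but its counts of the Y-linked genes Ddx3y, Eif2s3y, Kdm5d and Uty were 0 and its Xist level was 1701 CPM, close to the 1714 CPM in the female EEDcKO library. In bulk libraries, fewer cells of a type and less RNA per cell cannot be told apart.

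In AireEEDdKO, many genes fell steeply and a smaller number rose by less. Of 20196 genes tested, 1689 fell (8.36%) and 1007 rose (4.99%), 13.3% in all, where a gene was called if it changed at least 2-fold at an adjusted p under 0.05 (edgeR quasi-likelihood test, p-values adjusted by Benjamini and Hochberg). The median called fall was 2.30 on the log2 scale, or 2.24 with the 163 genes at 0 in every AireEEDdKO library set to their lower bound, and the median called rise was 1.57. Falls of at least 8-fold numbered 549 at that bound (32.5% of falls), against 50 such rises (4.97% of rises). The falls were mostly among weakly transcribed genes: 13.4% of genes averaging 3 to 10 CPM fell, but 1.20% of genes averaging 100 CPM or more. The shares that rose were 6.02% and 4.64% in the same classes. AireEEDdKO levels lay below all EEDcKO levels for 3213 tested genes (15.9%) and above all of them for 3321 (16.4%).

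**Figure D1:**
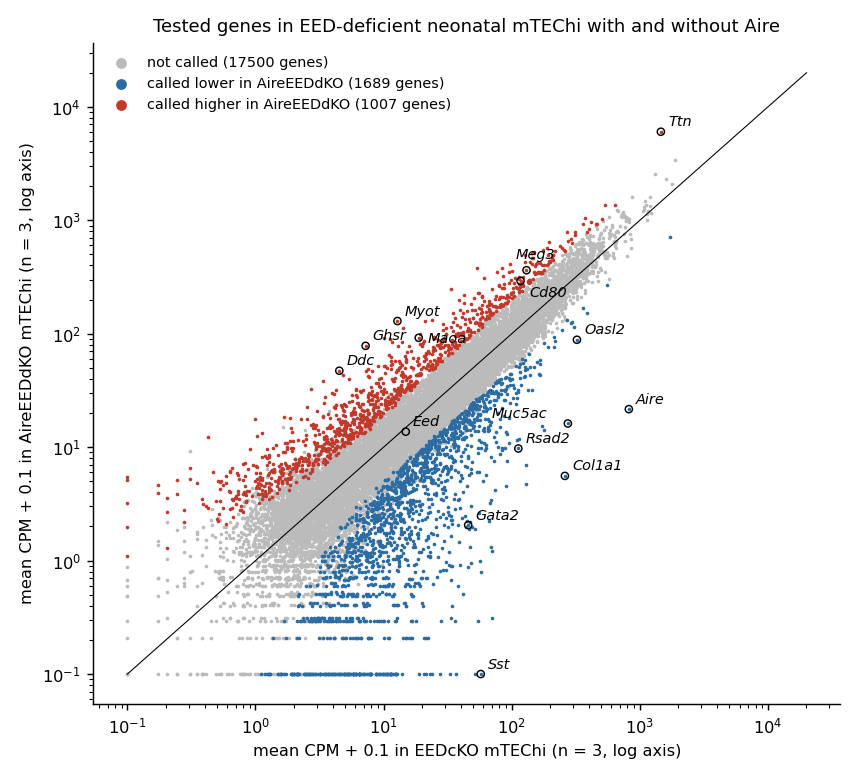
Mean CPM plus 0.1 of each of the 20196 tested genes in EEDcKO mTEChi (x axis) and AireEEDdKO mTEChi (y axis), n = 3 libraries each, both axes logarithmic; the line marks equal levels. The 1689 genes called lower spread far below the line towards 0, while the 1007 called higher stay in a band closer to it; Aire, Col1a1 and Gata2 lie well below the line, Ddc, Ghsr and Myot above it, and Eed on it.

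Aire itself (ENSMUSG00000000731, mm10 chromosome 10, 78030022 to 78043610, minus strand) was at 1072, 603 and 787 CPM in EEDcKO and at 22.4, 32.3 and 9.94 CPM in AireEEDdKO. The groups did not overlap, a low level of Aire reads remained in each AireEEDdKO library, and the log2 change was -5.32 (SE 0.56, adjusted p = 2.9e-06, edgeR quasi-likelihood test). The part of Aire that is deleted is not given in the sources used here, so these reads do not bear on the protein. Eed was at 19.8, 10.7 and 13.8 CPM in EEDcKO and at 17.1, 11.6 and 12.2 CPM in AireEEDdKO, overlapping ranges with a log2 change of -0.08 (SE 0.26, adjusted p = 0.87). It averaged 29.1 CPM in Ctrl mTEChi (n = 5). EED protein and H3K27me3 were not measured in these libraries. None of the 12 tested PRC2 subunits and partners passed the 2-fold call in either direction, beside 13.3% of all tested genes. The summed CPM of the list was nevertheless higher in AireEEDdKO without overlap, at 1194, 1157 and 1104 in EEDcKO against 1436, 1334 and 1300. Jarid2, an accessory subunit that helps bring PRC2 to its targets, came nearest, at 318, 346 and 309 CPM in EEDcKO and 599, 484 and 427 CPM in AireEEDdKO. Its log2 change of 0.63 passed the adjusted p (0.0045, edgeR quasi-likelihood test) but not the 2-fold minimum.

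Tissue-restricted antigens fell, several of them out of detection. Of 22 tested genes reported elsewhere as Aire-dependent antigens, 11 fell, 1 rose and 10 were not called, with a median log2 change of -2.87 on the fitted scale and -2.23 with genes at 0 set to their bound, against -0.01 over all tested genes. Sst, encoding the inhibitory peptide hormone somatostatin (ENSMUSG00000004366, chromosome 16, 23889573 to 23890958, minus strand), was at 64.4, 48.8 and 58.5 CPM in EEDcKO and at 0 in all 3 AireEEDdKO libraries, which is at least 125-fold lower when set against 3 counts over the group. Ins2, one of the insulin genes, was at 7.43, 3.06 and 6.6 CPM in EEDcKO and 0 in all AireEEDdKO libraries, at least 12.4-fold lower. Gal, encoding the neuropeptide galanin, kept some reads: 30.4, 28.2 and 20.8 CPM in EEDcKO against 0.589, 6.35 and 0.962 CPM in AireEEDdKO. Its log2 change was -3.45 (adjusted p = 0.00016, edgeR quasi-likelihood test), and the ranges did not overlap. The single riser was Resp18, a neuroendocrine secretory-granule gene named here after its values were seen, at 8.05, 8.31 and 5.35 CPM in EEDcKO against 54.7, 53.1 and 32.7 CPM in AireEEDdKO. The summed CPM of the whole list overlapped between groups, 477 to 995 against 466 to 791.

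Among 19 tested genes for proteins that patients lacking AIRE make autoantibodies against, 4 fell and 2 rose. Th, tyrosine hydroxylase, the first enzyme of catecholamine synthesis, was at 9.91, 20.1 and 7.23 CPM in EEDcKO and 0 in all AireEEDdKO libraries, at least 27.1-fold lower. Ddc, the decarboxylase that acts next in the same pathway, moved the other way and is described with the rises. Of 8 tested genes reported to depend on Fezf2, another antigen-inducing regulator of mTECs, 3 fell and 2 rose, and Fezf2 itself was at 217 to 290 CPM in EEDcKO and 228 to 325 CPM in AireEEDdKO (log2 change 0.18, adjusted p = 0.74, edgeR quasi-likelihood test).

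The deepest falls among genes with counts left in both groups included extracellular matrix, neuronal and signalling genes. Col1a1, the main chain of type I collagen, was at 177, 181 and 422 CPM in EEDcKO and at 7.65, 4.62 and 4.17 CPM in AireEEDdKO (log2 change -5.62, SE 0.64, adjusted p = 6.0e-06, edgeR quasi-likelihood test). All AireEEDdKO libraries were far below all EEDcKO libraries, of which the 1-day library was highest. In mTEClo the corresponding Col1a1 change was 0.22 (adjusted p = 0.81, the same test). Prph, encoding the neuronal intermediate filament peripherin, was at 135, 78.7 and 177 CPM against 7.06, 1.16 and 5.77 CPM (log2 change -4.74). Gata2, a transcription factor of blood progenitors and mast cells, was at 44.0, 52.9 and 39.9 CPM against 1.77, 3.47 and 0.642 CPM (log2 change -4.69, adjusted p = 1.5e-06). Again no AireEEDdKO library reached the lowest EEDcKO library. Lamc3 (a laminin chain, log2 change -4.86), Cilp (a cartilage matrix protein, -5.23), Fgf23 (the phosphate-regulating hormone, -4.68), Psca (-4.68), Ace (angiotensin-converting enzyme, -4.30) and Hmcn2 (hemicentin 2, an extracellular matrix protein, -4.23) also fell without overlap.

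Most groups of mimetic-cell genes lost members and gained few or none. Of 16 tested goblet genes 8 fell and 0 rose, of 18 enterocyte genes 9 fell and 1 rose, of 18 keratinocyte genes 9 fell and 1 rose, of 16 ciliated-cell genes 7 fell and 0 rose, and of 11 ionocyte genes 4 fell and 0 rose. Endocrine genes gave 5 falls and 1 rise of 15, tuft genes 4 falls and 0 rises of 15, and microfold genes 1 of each of 11. The medians ran from -1.91 (goblet) and -1.85 (enterocyte) to -0.49 (microfold) on the log2 scale, with the enterocyte median at -1.63 when its 3 genes at 0 were set to their bound.

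Muc5ac, a gel-forming mucin of goblet and surface mucous cells, was at 256, 243 and 324 CPM in EEDcKO and at 5.89, 2.89 and 39.5 CPM in AireEEDdKO. Its highest AireEEDdKO level, in replicate 3, stayed far below the lowest EEDcKO level, and the log2 change was -3.89 (adjusted p = 4.0e-04, edgeR quasi-likelihood test). Mcidas, a switch gene for making multiciliated cells, was at 44.0, 21.9 and 31.1 CPM against 1.18, 0 and 1.28 CPM. Trp73, which acts in the same programme, was at 10.5, 19.2 and 12.3 CPM against 1.18, 2.89 and 2.57 CPM (log2 change -2.65, adjusted p = 6.7e-06). Both ciliated-cell regulators thus separated the groups completely. Krt77, an epidermal keratin, was at 173, 132 and 233 CPM against 34.1, 4.04 and 3.85 CPM (log2 change -3.81). For Krt77, AireEEDdKO replicate 1 stood above the other AireEEDdKO libraries but below every EEDcKO library. Several of these counts depended on single libraries. Without the EEDcKO libraries from mice under 4 days, which leaves 1 EEDcKO library, no tuft, ionocyte or microfold gene was called, the goblet falls came down to 4, the enterocyte falls to 5, and the log2 change of Pou2f3, the master regulator of tuft cells, went from -1.42 to -0.04. The tuft median went with it, from -1.18 to -0.21, whereas the ionocyte median was -1.69 with those libraries and -1.82 without them. Without EEDcKO replicate 3 alone, 0 tuft, 2 ionocyte and 5 goblet genes fell, and without EEDcKO replicate 2 the tuft falls numbered 7. Without AireEEDdKO replicate 1, 2 or 3 in turn, the endocrine falls numbered 2, 2 and 1, and the tuft falls 2, 1 and 1. The ciliated-cell falls came down to 4 without AireEEDdKO replicate 2, and the goblet falls to 5 without AireEEDdKO replicate 1. The endocrine list also had a summed CPM that was higher in AireEEDdKO without overlap, at 747, 735 and 652. In EEDcKO the sum was at most 569 (mean 487 ± 89.5, SD, n = 3). Of the mean sums of 487 and 712 CPM, 210 and 445.5 CPM came from Cacna2d1, the only endocrine gene called higher. The sums of the other 7 lists of this kind overlapped. Among them the goblet sum had a higher mean in AireEEDdKO despite its 8 falls, 2758 CPM against 2026 CPM in EEDcKO. Microfold genes had a higher mean sum as well, 1578 against 1416 CPM, and the remaining lists a lower one.

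**Figure D2:**
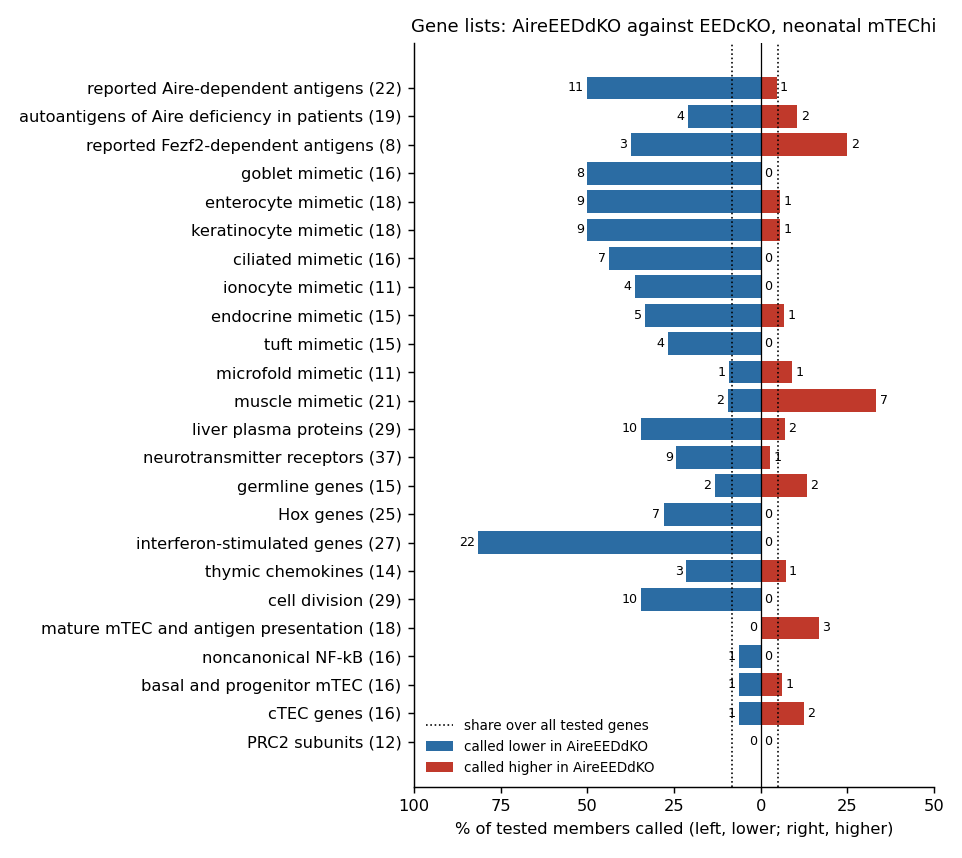
Share of the tested members of each gene list called lower (left) or higher (right) in AireEEDdKO mTEChi against EEDcKO mTEChi, with the number of called genes at each bar and the number tested in brackets; dotted lines give the shares over all tested genes, 8.36% and 4.99%. Interferon-stimulated genes have the longest bar to the left (22 of 27) and muscle genes the longest to the right (7 of 21).

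Genes of other tissue programmes fell too. Of 29 liver plasma-protein genes 10 fell and 2 rose, with 6 falls left without AireEEDdKO replicate 2; Apoa1, the main protein of high-density lipoprotein, was at 47.7, 26.9 and 32.4 CPM in EEDcKO and 2.94, 1.16 and 4.17 CPM in AireEEDdKO, whereas F2, prothrombin, was at 10.5, 15.3 and 12 CPM against 31.8, 40.4 and 23.7 CPM. Those 2 secreted proteins moved in opposite directions, with log2 changes of -3.55 and 1.29. Of 37 neurotransmitter receptor genes 9 fell and 1 rose. Chrna4, a neuronal nicotinic receptor subunit, fell from 78.0, 45.7 and 103 CPM to 14.7, 9.24 and 8.98 CPM (log2 change -2.80, adjusted p = 4.6e-05, edgeR quasi-likelihood test). Germline genes gave 2 calls in each direction of 15. Of 25 tested Hox genes, the body-axis regulators that are classical PRC2 targets, 7 fell and 0 rose. Hoxc13 was at 9.29, 5.69 and 3.15 CPM in EEDcKO and at 0 in all AireEEDdKO libraries, at least 13.2-fold lower. The other 6, seen after the test, were Hoxb3, Hoxb5, Hoxb6, Hoxb8, Hoxb13 and Hoxa3, so 5 of the 8 tested HoxB genes fell. No AireEEDdKO library held more than 1.18 CPM of any of those 5. Hoxb6, for example, was at 8.67, 7 and 12.6 CPM against 1.18, 1.16 and 0.962 CPM. Without the younger EEDcKO libraries 2 of the 25 were called, and without EEDcKO replicate 3 alone 4 were.

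Interferon-stimulated genes fell together. These genes are switched on by interferon signalling, and many of their products act against viruses. Of 27 tested, 22 fell, 0 rose, and the other 5 (among them Mx1, Irf9, Ifih1 and Oasl1) had log2 changes from -0.94 to -0.68 that missed the 2-fold minimum but passed the adjusted p; for all 27 the AireEEDdKO levels lay below the EEDcKO levels without overlap. The median log2 change was -2.27, and their summed CPM was 2879, 2125 and 3619 in EEDcKO and 860, 745 and 970 in AireEEDdKO. Over the 19 alternative analyses tried for this list, 22 to 25 of the 27 were called lower. The list remained at 24 calls without the younger EEDcKO libraries and at 23 with age class as a term.

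Rsad2, encoding the antiviral enzyme viperin (ENSMUSG00000020641, chromosome 12, 26442746 to 26456452, minus strand), was at 102, 87.9 and 148 CPM in EEDcKO and at 12.4, 6.93 and 9.62 CPM in AireEEDdKO. The groups were wide apart and the log2 change was -3.54 (SE 0.28, adjusted p = 1.1e-07, edgeR quasi-likelihood test), the smallest p of the comparison. Oasl2, of the oligoadenylate synthetase family, was at 343, 235 and 391 CPM against 94.8, 76.8 and 93.7 CPM (log2 change -1.86, adjusted p = 4.4e-07). Ifit2, whose product binds viral RNA, was at 74.9, 42.7 and 84.6 CPM against 2.94, 0.578 and 5.77 CPM (log2 change -4.23). Stat2, a transcription factor that acts downstream of the interferon receptors, was at 174, 124 and 200 CPM against 50.0, 53.1 and 58.4 CPM (log2 change -1.62). The receptor gene Ifnar1 was at 142, 148 and 154 CPM against 182, 179 and 168 CPM (log2 change 0.25, adjusted p = 0.072). Ifnlr1, encoding a chain of the receptor for lambda interferons, was at 14.2, 14.4 and 20.8 CPM against 4.12, 5.20 and 9.30 CPM and fell (log2 change -1.33, adjusted p = 0.014, edgeR quasi-likelihood test), a call lost in 5 of the 20 alternatives, among them the one without the younger EEDcKO libraries. Ifnar1, Ifnlr1 and Stat2 were named after their values were seen.

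The upstream sequences of 3 called genes are shown because they hold the core letters of the interferon-stimulated response element, GAAANNGAAA. RefSeq promoters on GRCm38.p6 (the mm10 assembly) were searched over the 250 bases before the start, on both strands, with overlapping matches counted separately. Of the 27 genes 20 had an entry, and 10 of these 20 held a match; of all 32851 RefSeq promoters searched, 978 did (2.98%), against 10 of the 23 promoters of these genes (43.5%). Each sequence is given 5′ to 3′ on the gene's strand, and capitals mark the match, or the merged stretch where 2 matches overlap.
Rsad2, chr12:26456453-26456702, minus strand: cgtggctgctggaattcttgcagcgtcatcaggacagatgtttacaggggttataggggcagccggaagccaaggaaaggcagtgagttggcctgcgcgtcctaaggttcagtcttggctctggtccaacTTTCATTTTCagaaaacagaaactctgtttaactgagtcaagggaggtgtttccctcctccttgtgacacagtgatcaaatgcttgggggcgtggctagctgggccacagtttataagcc
Oas1a, chr5:120907526-120907775, minus strand: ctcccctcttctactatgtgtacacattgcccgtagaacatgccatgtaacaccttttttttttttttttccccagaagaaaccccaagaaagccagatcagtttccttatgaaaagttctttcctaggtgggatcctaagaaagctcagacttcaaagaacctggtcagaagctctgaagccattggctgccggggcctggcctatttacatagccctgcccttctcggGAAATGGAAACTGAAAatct
Bst2, chr8:71537473-71537722, minus strand: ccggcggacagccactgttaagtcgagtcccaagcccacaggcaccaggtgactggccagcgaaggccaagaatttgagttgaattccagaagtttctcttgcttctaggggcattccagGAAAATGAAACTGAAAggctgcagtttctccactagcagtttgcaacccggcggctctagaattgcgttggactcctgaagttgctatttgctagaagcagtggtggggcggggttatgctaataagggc
Oas1a held 2 overlapping matches, beginning 20 and 14 bases before the start, and Bst2, which encodes the virus-tethering protein tetherin, held 2 at 130 and 124 bases. Oas1a was at 45.2, 37.8 and 52.5 CPM in EEDcKO and 6.48, 6.93 and 10.6 CPM in AireEEDdKO, and Bst2 at 55.1, 50.5 and 90.6 CPM against 16.5, 13.9 and 11.2 CPM, without overlap in either case. Oas1a and Bst2 were chosen after their values and matches were seen, and a match in these letters is a description of the sequence alone.

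**Figure D3:**
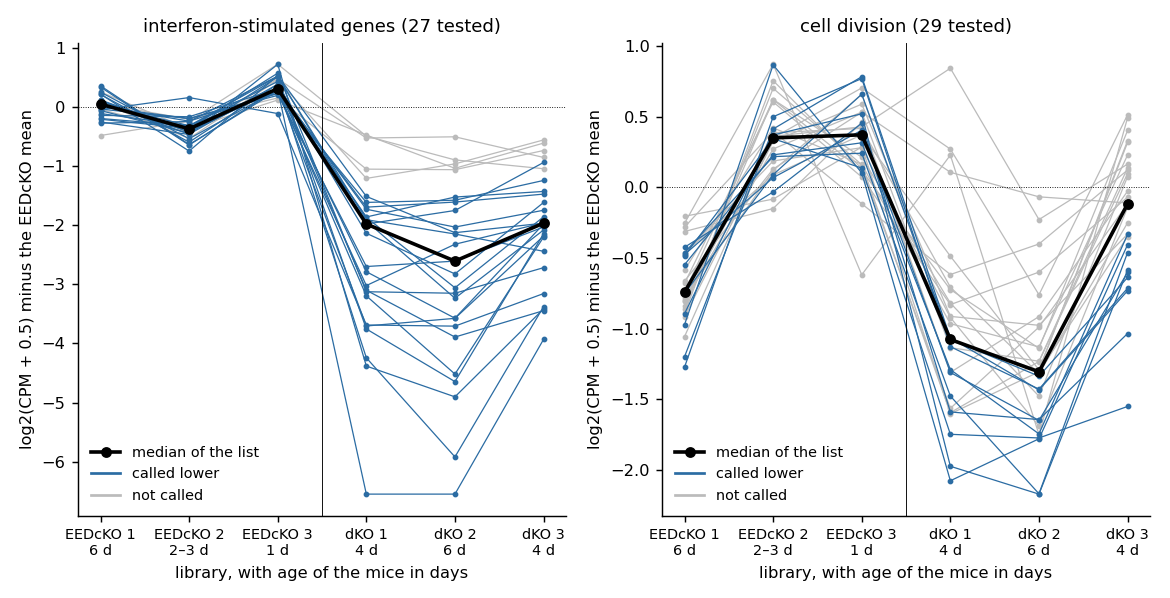
Each line is 1 gene across the 6 libraries (x axis, with the age of the mice in days), as log2(CPM + 0.5) minus its EEDcKO mean (y axis); the thick line is the median of the list. For interferon-stimulated genes (left) all 3 AireEEDdKO libraries lie below all 3 EEDcKO libraries, whereas for cell-division genes (right) the 6-day EEDcKO library is low and AireEEDdKO replicate 3 is as high as some EEDcKO values.

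Cell-division genes behaved differently. Of 29 tested, 10 fell and 0 rose, with a median log2 change of -0.82, but their summed CPM was 919, 1789 and 1903 in EEDcKO and 748, 620 and 1322 in AireEEDdKO, which overlapped. The 6-day EEDcKO library lay within the AireEEDdKO range. Without the EEDcKO libraries from mice under 4 days, 1 of 29 was called and the median was 0.09. With age class as a term, 2 of 29 were called, and without AireEEDdKO replicate 3, 21 were called with a median of -1.37. Without AireEEDdKO replicate 2 or EEDcKO replicate 3 the falls numbered 4 and 5. Cenpa, the centromeric histone variant, was at 24.8, 44.4 and 38.4 CPM against 10.0, 9.82 and 11.5 CPM, and its call (log2 change -1.79, adjusted p = 4.9e-05, edgeR quasi-likelihood test) held in every alternative tried.

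Called genes also lay next to each other on the chromosomes. Among protein-coding genes that fell, 38.9% had a fallen gene as a direct tested neighbour, against 15.8% of the other coding genes; the shares for rises were 24.7% and 6.12%. The runs below were picked after their values were seen, and each holds close paralogs beside other genes, so that the division of reads among near-identical copies is uncertain. A run of 8 consecutive tested coding genes on chromosome 19, 34473778 to 34650009, from Ch25h to Ifit1, fell, and so did 8 on chromosome 11, 48861968 to 49135387, from Irgm1 to Tgtp2. That run holds the interferon-inducible GTPase genes Irgm1, Tgtp1 and Tgtp2 beside others such as the proteasome activator gene Psme2b and the olfactory receptor gene Olfr56. The next run, 7 keratin genes from Krt71 to Krt76 on chromosome 15, 101733949 to 101892920, includes inner-root-sheath keratins of the hair follicle. In that run Krt71 was at 87.3, 22.3 and 78.9 CPM in EEDcKO and 12.4, 2.31 and 2.25 CPM in AireEEDdKO, and Krt73 at 62.6, 2.41 and 34.9 CPM against 0.589, 1.16 and 0 CPM. The call of Krt2 was lost in 8 of the 18 alternatives that gave it a value. Pyy, encoding the gut hormone peptide YY, and its neighbour Ppy lay in a run of 4 on chromosome 11. Pyy was at 55.7, 31.9 and 66.7 CPM against 0 in all AireEEDdKO libraries, at least 112-fold lower, and Ppy was at 22.9, 15.1 and 11.0 CPM against 0, 0.578 and 0 CPM.

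The genes that rose most included enzymes, receptors and transporters of other tissues. Ddc (ENSMUSG00000020182, chromosome 11, 11814101 to 11898144, minus strand), the decarboxylase that makes dopamine and serotonin, was at 3.72, 1.97 and 7.55 CPM in EEDcKO and at 64.8, 50.3 and 26.3 CPM in AireEEDdKO. All AireEEDdKO libraries stood above all EEDcKO libraries, and the log2 change was 3.42 (SE 0.47, adjusted p = 3.5e-05, edgeR quasi-likelihood test). Maoa, monoamine oxidase A, which breaks down the same amines, was at 24.2, 16.8 and 15.1 CPM against 103, 106 and 67.4 CPM (log2 change 2.33, adjusted p = 2.9e-06). Both calls held in every alternative tried. Ghsr, the receptor for ghrelin, was at 8.05, 6.12 and 7.23 CPM in EEDcKO and 104, 114 and 16.4 CPM in AireEEDdKO (log2 change 3.45, adjusted p = 0.00057). Abcb11, the bile salt export pump of the liver, was at 3.10, 3.28 and 3.46 CPM against 54.7, 47.9 and 11.9 CPM (log2 change 3.49, adjusted p = 4.2e-04). For both genes AireEEDdKO replicate 3 was the lowest of its group, though above every EEDcKO library. Without the younger EEDcKO libraries Ghsr and Abcb11 lost their calls (adjusted p = 0.098 and 0.072, edgeR quasi-likelihood test) at log2 changes of 3.17 and 3.50. AireEEDdKO replicate 3 was the lowest of its group for 759 of the 1007 rises (75.4%).

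In the 4 neonatal mTEChi genotypes, Ddc averaged 8.63 ± 2.98 CPM in Ctrl (SD, n = 5), 10.5 ± 3.77 in AireKO (n = 3), 4.41 ± 2.85 in EEDcKO (n = 3) and 47.1 ± 19.4 in AireEEDdKO (n = 3). Ghsr and Abcb11 were likewise high in AireEEDdKO alone of the 4, with means of 78.1 and 38.2 CPM against at most 13.0 and 11.8 CPM in the others. Serpina7, thyroxine-binding globulin, reached in AireEEDdKO a level near those of the EED-sufficient genotypes, averaging 4.72 CPM in EEDcKO and 43.5 CPM in AireEEDdKO, beside 38.9 CPM in Ctrl and 57.1 CPM in AireKO. Its call was lost without the younger EEDcKO libraries, at a log2 change of 2.56 (from 3.31). These comparisons across genotypes are a description.

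**Figure D4:**
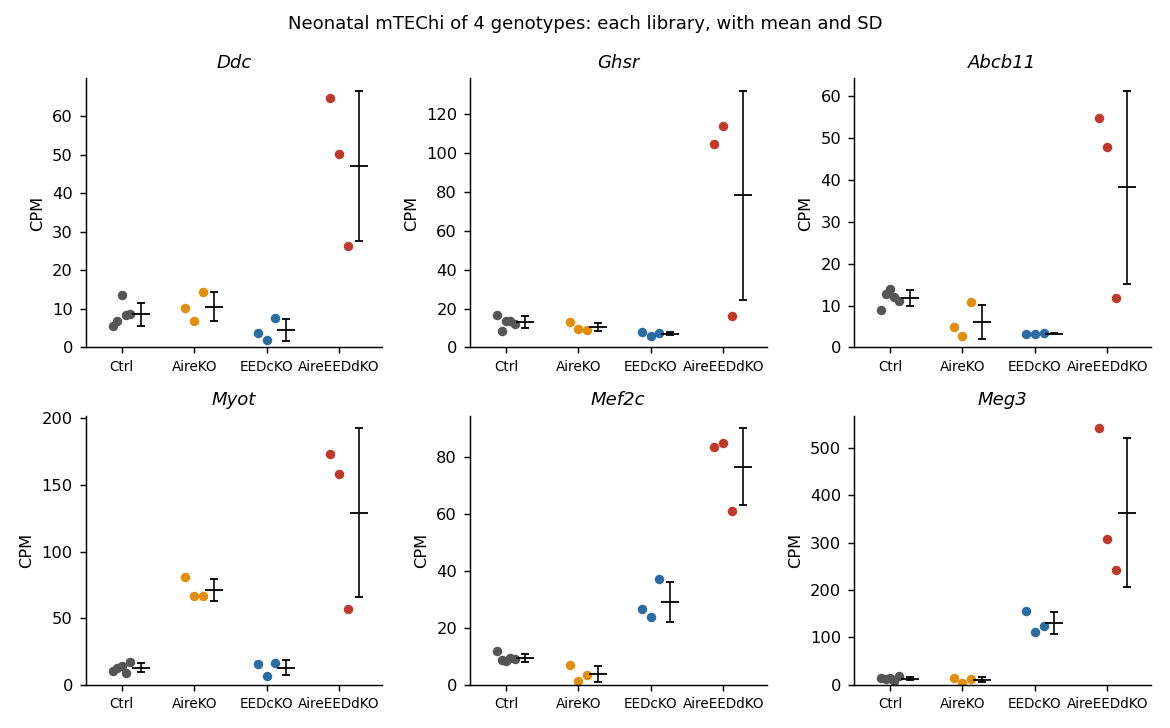
CPM (y axis, from 0) of 6 genes in neonatal mTEChi of Ctrl (n = 5), AireKO, EEDcKO and AireEEDdKO mice (n = 3 each); points are libraries and bars show the mean and SD. Ddc, Ghsr and Abcb11 have their highest mean in AireEEDdKO, though for Ghsr and Abcb11 the lowest AireEEDdKO library lies within the Ctrl range. Myot is high in AireKO and AireEEDdKO, and Mef2c and Meg3 are higher in EEDcKO than in Ctrl and higher still in AireEEDdKO.

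Muscle genes were the only mimetic list with more rises than falls. Of 21 tested, 7 rose and 2 fell, with a median log2 change of 1.04, and their summed CPM was 2801, 1575 and 1177 in EEDcKO and 8053, 7830 and 4354 in AireEEDdKO. Most of that sum was Ttn, encoding the giant sarcomere protein titin, at 2375, 1178 and 825 CPM against 7132, 7177 and 3804 CPM (log2 change 2.05, adjusted p = 3.6e-04, edgeR quasi-likelihood test). Chrng, the fetal subunit of the muscle acetylcholine receptor, was at 14.9, 10.9 and 12.6 CPM against 67.1, 39.9 and 36.2 CPM (log2 change 1.91), and Myl1, a fast-muscle myosin light chain, at 6.19, 4.16 and 4.09 CPM against 27.1, 31.2 and 14.1 CPM (log2 change 2.35). Ttn, Chrng and Myl1 thus separated the groups, but 12 of the 21 muscle genes were not called. The muscle-determining factor Myod1, named after its values were seen, was at 1.86, 6.78 and 27.4 CPM against 0.589, 2.89 and 0.642 CPM and fell. Without AireEEDdKO replicate 1 the rises numbered 3 and without EEDcKO replicate 3 they numbered 4. None of the 7 rises was called without the younger EEDcKO libraries, where the log2 change of Ttn was 1.27 and the list median 0.96. Myot, a Z-disc protein gene outside that list, was at 15.5, 6.34 and 16.4 CPM against 173, 158 and 56.8 CPM (log2 change 3.40, adjusted p = 5.8e-05), and its call held in every alternative tried.

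Of 18 tested genes of mature, antigen-presenting mTECs, 3 rose and 0 fell, beside 4.99% and 8.36% of all tested genes. With 18 members, 0 falls is near that share. The list median was a log2 change of 0.58, against -0.01 over all tested genes. Cd80, a co-stimulatory ligand for T cells, was at 153, 81.1 and 117 CPM in EEDcKO and 362, 349 and 166 CPM in AireEEDdKO (log2 change 1.33, adjusted p = 0.011, edgeR quasi-likelihood test), and H2-Aa, an MHC class II chain, was at 719, 375 and 493 CPM against 991, 925 and 544 CPM (log2 change 0.64, adjusted p = 0.093). The calls of Cd80, Cd83 and Icosl were lost in 5, 5 and 10 of the 20 alternatives, among them the one without the younger EEDcKO libraries, where 0 of 18 was called (log2 changes of 0.85, 1.37 and 0.74 from 1.33, 1.61 and 1.05). Of 16 genes of the noncanonical NF-kB list, which also holds canonical members such as Rela and Nfkb1, 0 rose and 1 fell, with a median log2 change of 0.45. The summed CPM of that list was higher in AireEEDdKO without overlap, at 5072, 4636 and 3768 against 3589, 3149 and 3433 in EEDcKO. Of 14 thymic chemokines 1 rose and 3 fell, of 16 cortical thymic epithelial genes 2 rose and 1 fell, and of 16 basal and progenitor genes 1 rose and 1 fell. Dcn, encoding the collagen-binding proteoglycan decorin, was that riser among basal genes, at 65.0, 66.5 and 105 CPM against 351, 257 and 188 CPM (log2 change 1.74, adjusted p = 1.0e-05). Its relative Lum, lumican, rose beside it, from 12.4, 8.97 and 12.6 CPM to 85.4, 47.4 and 40.4 CPM (log2 change 2.36).

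Rises and falls differed in gene type. Protein-coding genes made up 1600 of the falls (94.7%) but 572 of the rises (56.8%). Of 653 tested lincRNA genes 110 rose (16.8%) and 17 fell (2.60%), whereas of 16099 coding genes 3.55% rose and 9.94% fell. Processed pseudogenes (11.3% rose, 1.65% fell) and antisense genes (7.19% and 2.09%) leaned the same way. Counting did not use strand, so reads of antisense genes cannot be told from those of their partners. Among lincRNA genes, chosen after their values were seen, Gm10165 was at 34.7, 30.8 and 34.9 CPM in EEDcKO and 280, 301 and 169 CPM in AireEEDdKO (log2 change 2.90, adjusted p = 2.4e-04, edgeR quasi-likelihood test). Without the younger EEDcKO libraries its log2 change was 2.77 and no longer passed (adjusted p = 0.056, the same test). With library-size scaling in place of TMM, the falls made up 72.4% of the calls instead of 62.6%, and the median change over all genes moved from -0.01 to -0.15.

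The same allele was lost with EED present in the AireKO and Ctrl mTEChi libraries, which share no library with the comparison above. Ages were unequal in the same direction there, with 4 or 6 days in AireKO and 1 to 6 days in Ctrl. The part of age in the calls shared by both comparisons was not tested. There 2593 genes fell (12.8%) and 718 rose (3.56%). Of the 1689 genes that fell without EED, 1215 (71.9%) also fell with EED present, which is 46.9% of those 2593, and 1 rose. Of the 1007 that rose, 343 (34.1%) also rose with EED present, 47.8% of those 718, and 7 fell. The median log2 change of the 1689 falls was -2.30 without EED, the contrast that chose them, and -2.32 with it. For the 1007 rises, chosen the same way, the medians were 1.57 and 0.83. Chosen instead by the contrast with EED present, the 2593 falls had medians of -2.5 with EED and -1.48 without it. For the 718 rises of that contrast the medians were 1.3 and 1.19. Reported Aire-dependent antigens gave 15 falls and 0 rises of 22 with EED present, beside 11 and 1 without. Interferon-stimulated genes gave 17 falls beside 22, Hox genes 13 beside 7, cell-division genes 0 beside 10, and muscle genes 6 falls and 0 rises beside 2 falls and 7 rises. These counts set side by side are no test of a difference.

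**Figure D5:**
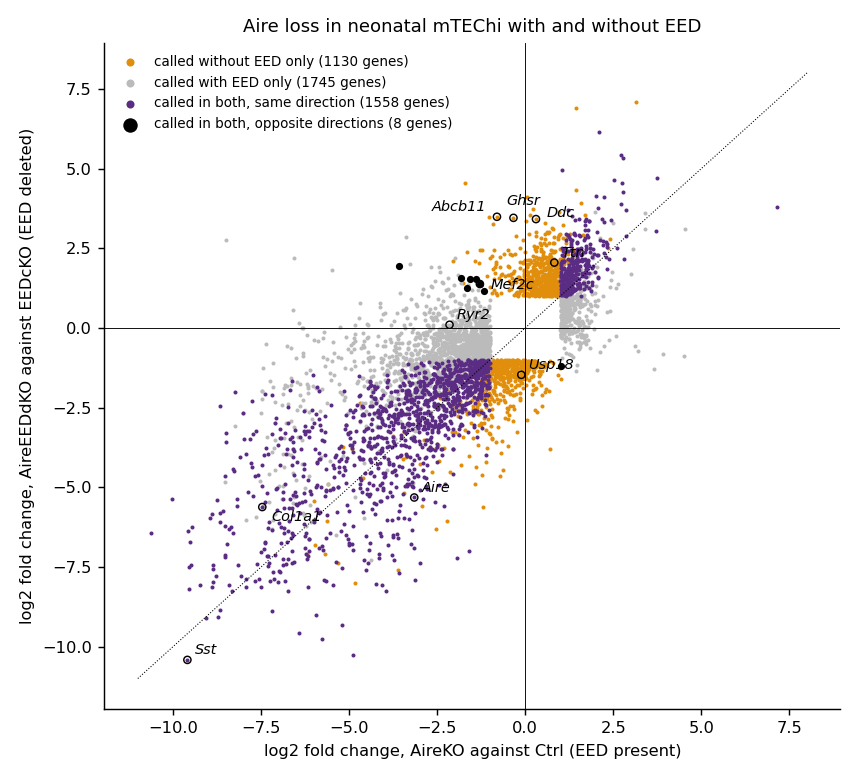
Log2 fold changes of called genes for Aire loss with EED present (AireKO against Ctrl, x axis) and with EED deleted (AireEEDdKO against EEDcKO, y axis), coloured by where the gene was called; the dotted line marks equal changes, and the values of genes at 0 in a group depend on the prior count. Called in both with the same direction were 1558 genes, mostly in the lower left, and 8 were called in opposite directions.

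The difference between both Aire effects was tested as an interaction, which called 253 genes (1.25%), 163 with a more positive change without EED and 90 with a more negative one. That count was unstable, between 43 (without AireEEDdKO replicate 1) and 530 (without EEDcKO replicate 1) when single libraries were left out. Ddc rose without EED and changed by 0.31 with it, a difference of 3.11 on the log2 scale (SE 0.62, adjusted p = 0.018, edgeR quasi-likelihood test), and that of Abcb11 was 4.29 (SE 0.83, adjusted p = 0.016). Mef2c, a transcription factor of muscle, lymphoid and neural cells, was at 26.6, 23.8 and 37.1 CPM in EEDcKO and 83.6, 84.9 and 60.9 CPM in AireEEDdKO, while it averaged 9.37 CPM in Ctrl and 3.87 CPM in AireKO. It rose on Aire loss without EED and fell with EED present, and its difference of 2.67 (SE 0.36, adjusted p = 0.0016) held with each of the 14 mTEChi libraries left out in turn. Cenpa differed by -1.81 (SE 0.33, adjusted p = 0.012), and Oasl2 by -0.82 (SE 0.21, adjusted p = 0.048). For Aire itself the changes were -5.32 and -3.15, a difference that missed the threshold (adjusted p = 0.098).

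In mTEClo, the fraction with low MHC class II, the comparison of AireEEDdKO with EEDcKO called 374 genes lower (1.85%) and 697 higher (3.45%). Of the mTEChi falls 199 (11.8%) also fell in mTEClo, 53.2% of those 374, and of the mTEChi rises 301 (29.9%) also rose there, 43.2% of those 697. The opposite call was given to 14 of the falls and 2 of the rises. Interferon-stimulated genes gave 22 falls of 27 in mTEClo, median log2 change -1.61, and muscle genes 14 rises and 0 falls of 21, median 1.67. With only the AireEEDdKO and EEDcKO mTEClo libraries fitted, the 1071 calls came down to 40, so mTEClo values are given as a description. Between the Ctrl fractions, mTEChi was higher than mTEClo for 74.7% of the mTEChi falls and 85.1% of the rises, against 49.8% of all tested genes.

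Markers of cells outside the thymic epithelium moved in several directions. Of 11 tested mesenchyme markers 2 rose (Dcn, Lum) and 2 fell (Col1a1, Fbn1), while Col1a2, the partner chain of Col1a1, was at 232, 136 and 158 CPM in EEDcKO and 223, 291 and 127 CPM in AireEEDdKO (log2 change 0.29); the summed CPM of the list overlapped, 1123 to 1397 against 986 to 1395. Of 10 thymocyte markers 1 rose and 1 fell, and of 10 myeloid and 5 B cell markers none was called. The B cell sum was nevertheless higher without overlap, 88.6 to 108 CPM in EEDcKO and 153 to 235 CPM in AireEEDdKO. Of 7 endothelial markers 3 fell, with sums of 94.9 to 98.4 CPM against 51.0 to 67.1 CPM. Among erythroid markers Slc4a1, the red-cell anion exchanger, was at 61.9, 20.6 and 16.4 CPM against 0 in all AireEEDdKO libraries, at least 71.9-fold lower, whereas Alas2, the erythroid haem-synthesis enzyme, was at 9.29, 10.7 and 10.1 CPM against 17.1, 17.3 and 10.3 CPM. The part of such cells in the results above was not tested.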

How the data were processed

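Bulk RNA was sequenced from sorted DAPI-CD45-EpCAM+Ly51- mTECs, high or low for MHC class II, with a full-length random-primed protocol. The authors trimmed reads (to 50 bases where needed), aligned them to mm10 with STAR 2.7.3a and an Ensembl annotation whose release is not given in the sources used here, dropped alignments with a mapping quality under 5 and duplicates, and counted reads per gene without regard to strand with htseq-count 0.11.2. The deposited values are these raw counts.

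From the counts, genes were filtered with filterByExpr, scaled by TMM and fitted by edgeR's quasi-likelihood method (edgeR 4.0.16, R 4.3.3) over all 24 neonatal libraries in 7 groups, which share 1 estimate of the spread. Genes were called at a Benjamini-Hochberg adjusted p under 0.05 and at least a 2-fold change. Log2 changes carry a prior count of 0.125. Fits were first tested on simulated data. DESeq2 1.42.0 and other scalings, filters, covariates and sample sets were alternatives. Labels do not state that replicates are separate animals in every case, and p-values measure the spread between libraries. GENCODE M21 named 55230 of 55471 genes.

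The members and gene lists were chosen with earlier results of these data known. Named were the regulators (Aire, Eed, Ezh2, Ezh1, Suz12, Fezf2, Foxn1, Cd80, H2-Aa), the 8 largest falls and rises and the 5 smallest p of each direction among called coding genes off the Y chromosome that did not overlap between groups, had a mean of 10 CPM or more on the higher side and more than 3 counts on the lower, up to 3 members a list, and the 3 smallest interaction p of each direction. Some genes that this rule names are not reported here. Genes named otherwise are marked as chosen after their values were seen.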

Additional observations from a re-analysis of the deposited data

Results flagged for a closer look

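For 18 named genes the effect of Aire loss differed between EED-deficient and EED-sufficient mTEChi by a direct test of the difference (edgeR quasi-likelihood interaction, Benjamini-Hochberg adjusted). The difference, given as the change without EED minus the change with EED on the log2 scale, was positive for Abcb11 (4.29), Ghsr (3.79), Dlk1 (3.57), Rian (3.20), Ddc (3.11), Mirg (2.67), Mef2c (2.67), Ryr2 (2.25) and Gstt3 (1.68). It was negative for Krtdap (-2.11), Cenpf (-1.86), Cenpa (-1.81), Ccna2 (-1.76), Ifit1 (-1.58), Usp18 (-1.36), Notch1 (-1.33), Iqsec1 (-0.94) and Oasl2 (-0.82). With each of the 14 mTEChi libraries left out in turn, Ryr2, Mef2c, Gstt3, Notch1, Usp18, Iqsec1, Ccna2 and Rian passed an adjusted p under 0.05 in all 14 fits. Abcb11 and Cenpa passed in 13, Ddc in 11, Cenpf in 9, Ghsr in 4, Oasl2, Krtdap, Dlk1 and Ifit1 in 3, and Mirg in 2.

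Ryr2, the cardiac calcium release channel, was at 52.0, 58.6 and 51.3 CPM in EEDcKO and at 51.2, 63.5 and 59.0 CPM in AireEEDdKO, overlapping ranges, whereas with EED present it fell by 2.15 on the log2 scale. Notch1, a receptor of cell-fate decisions, was at 498, 544 and 554 CPM in EEDcKO and at 336, 336 and 385 CPM in AireEEDdKO, a log2 change of -0.59 beside 0.73 with EED present.

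Among the 5 Ctrl mTEChi libraries, 1 library stood apart for Mef2c by the gap to its nearest neighbour, Ctrl replicate 1, the highest at 11.81 CPM. Chance flags about 1 in 20 groups, and 10 genes were checked.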

How the results depend on the processing

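The count of genes called for AireEEDdKO against EEDcKO in mTEChi was 2696, and stayed within 1.5 times that count with other scalings, filters, DESeq2, age or sex as a term, and the 14 mTEChi libraries alone (2191 to 3063). A similar count did not mean the same genes. With age class as a term 2191 genes were called and 1858 of the 2696 were kept. With age in days as a term 2245 were kept, and with sex as a term 2243. It moved to 4544 with no minimum change, 1749 with only the 6 libraries compared, 1648 with those 6 and the replicate block, and 1117 (940 lower, 177 higher; 888 of the 2696 kept) without EEDcKO libraries under 4 days, where 1 EEDcKO library is assumed to vary like the other groups. Leaving out single libraries gave 1884 to 3011 calls. For AireKO against Ctrl (3311) no minimum change gave 5816 and single libraries left out gave 2551 to 3313. For mTEClo (1071) no minimum change gave 1619, only the groups compared 40, and single libraries left out 376 to 1507. For the interaction (253), no filter on low counts gave 455, DESeq2 386, the 14 mTEChi libraries alone 394, and single libraries left out 43 to 530.

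Same-numbered EEDcKO and AireEEDdKO libraries had correlations of 0.03, -0.27 and -0.04 in their deviations from the group means, so the numbers do not pair the samples. With the replicate block 2579 genes were called, and 2778, 765 and 239 in the other 3 comparisons. With sex as a term, the Y-linked genes Eif2s3y, Kdm5d and Uty reversed to -2.11, -2.38 and -2.24 on the log2 scale. That term took sex from the labels, which give AireEEDdKO replicate 1 as a pool of both sexes although it held no Y-linked counts. Results with sex as a term carry that mismatch. Depth limited genes under about 1.86 CPM, the highest floor of a library.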

Other observations

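The genes below were chosen after their values were seen. At the imprinted Dlk1-Meg3 locus, the noncoding RNAs Meg3, Rian and Mirg were higher in AireEEDdKO than in EEDcKO, while the protein-coding neighbour Dlk1, an imprinted growth regulator, was not. Meg3 was at 155, 111 and 125 CPM in EEDcKO and at 541, 307 and 242 CPM in AireEEDdKO (log2 change 1.48, adjusted p = 0.0010, edgeR quasi-likelihood test). Rian was at 126, 77.6 and 49.7 CPM against 569, 321 and 260 CPM (log2 change 2.21, adjusted p = 7.6e-05), and Mirg at 19.2, 11.8 and 3.15 CPM against 75.9, 41.6 and 41.4 CPM (log2 change 2.30). The groups did not overlap for any of the 3 RNAs. Dlk1 was at 103, 56.6 and 129 CPM against 117, 54.3 and 46.2 CPM (log2 change -0.42, adjusted p = 0.48). Rian averaged 29.0 CPM in Ctrl and 14.5 CPM in AireKO, and Dlk1 22.6 and 1.38 CPM. Without the EEDcKO libraries from mice under 4 days the calls of Meg3 and Mirg were lost, at log2 changes of 1.15 and 1.38, and that of Rian was kept.

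Genes of mast-cell granules and receptors were near 0 in AireEEDdKO. The protease genes Mcpt2 and Mcpt4 were at 29.1, 3.50 and 1.57 CPM and at 3.10, 4.59 and 1.57 CPM in EEDcKO and at 0 in all AireEEDdKO libraries, at least 24.9-fold and 6.74-fold lower. The tryptase gene Tpsb2 was at 18.6, 8.09 and 10.1 CPM against 1.18, 0 and 1.6 CPM, and Ms4a2, a chain of the IgE receptor, at 9.29, 1.75 and 3.77 CPM against 0 in all 3, at least 10.8-fold lower. Other genes known from mast cells did not fall: Kit was at 212, 188 and 184 CPM in EEDcKO and 419, 427 and 284 CPM in AireEEDdKO (log2 change 0.95), and Hdc, the histamine-forming decarboxylase, at 524, 325 and 367 CPM against 884, 796 and 517 CPM (log2 change 0.86, adjusted p = 0.12, edgeR quasi-likelihood test). With EED present, the changes of Kit and Hdc on Aire loss were 0.92 and 0.85. Mcpt and Tps genes have close paralogs, and the division of reads among them is uncertain.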
